A study of Mus musculus with 44 samples.

Results

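Acid is secreted by the parietal cells of the gastric corpus, and 10 genes of this machinery were followed in KO and WT mice given netazepide or vehicle: Atp4a, Atp4b, Kcnq1, Kcne2, Kcnj15, Kcnj16, Slc26a7, Slc4a2, Slc9a4 and Clic6. They were listed by their role and not by their values. Deposited transcript counts were summed per gene by gene name, and all 10 were found among 31484 genes and were among the 14901 genes with enough counts to be tested. The H+/K+ATPase exchanges cytoplasmic protons for luminal potassium, with a catalytic alpha subunit (Atp4a) and a glycosylated beta subunit (Atp4b) that is needed for its assembly and its delivery to the secretory membrane. The potassium it uses returns to the lumen through apical channels, of which the pore formed by Kcnq1 with its accessory subunit Kcne2 is the best known. The bicarbonate left behind exits across the basolateral membrane in exchange for chloride, through Slc4a2 (AE2) and Slc26a7, while Slc9a4 (NHE4) exchanges sodium for protons on the same side.

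The mice were of the BalbC strain, female, and 13 months old at termination. KO mice were homozygous for an H+/K+ATPase beta subunit allele whose first exon was disrupted by a neomycin cassette, an allele carried by every cell of the animal. Netazepide (NTZ), an antagonist of the gastrin receptor, was given in polyethylene glycol (PEG), and the vehicle groups received PEG without the drug. The groups were WT/PEG (11 libraries), WT/NTZ (9 libraries), KO/PEG (13 libraries) and KO/NTZ (11 libraries), each of messenger RNA from a piece of gastric corpus mucosa. In such bulk samples, fewer parietal cells and less RNA per parietal cell cannot be told apart. P-values measure the spread between libraries, and 2 WT/PEG libraries carry the same animal number. The study describes fewer KO/PEG mice than there are KO/PEG libraries, and how they relate is not given in the sources used here. Each library was counted as 1 sample, and p-values with KO/PEG are too small if some of its libraries share a mouse.

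Libraries held between 6065084 and 21945124 estimated counts. Gastric markers were abundant in KO/PEG. Pgc of chief cells had a median of 8297 normalized counts (CPM, scaled so that libraries of different depth compare, after TMM normalization). Gkn1 of surface mucous cells had one of 15570. Markers of other cell types moved with genotype. Their summed levels, here and below, are CPM of library totals, without TMM normalization. The summed level of 4 mucous neck and metaplasia markers was between 1707 and 2358 CPM in WT/PEG and between 7202 and 55180 in KO/PEG, that of 5 chief cell markers was at least 93560 in WT/PEG and at most 39859 in KO/PEG, and that of 6 immune markers at most 73.7 and at least 151. Libraries also differed in how levels depended on transcript length. This was expressed as a length slope, the slope of log2 level (relative to the mean of all libraries) on log2 length over 15937 transcripts. WT/PEG libraries had slopes between 0.115 and 0.379 and WT/NTZ libraries between 0.0938 and 0.295. KO/PEG libraries lay between -0.409 and 0.23 and KO/NTZ libraries between -0.398 and -0.064, so only 1 of the 24 KO libraries (KO/PEG 46) lay in the range of the WT libraries. The median share of mitochondrial counts was 9.53% (PEG) and 9.38% (NTZ) in WT mice, and 4.83% (PEG) and 3.78% (NTZ) in KO mice. Slope-adjusted values of the 10 genes in this main comparison are given below, and the part of the slope and of the marker lists in the results was not tested.

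Per transcript length, the pump stood far above its partners in WT mucosa. In TPM (counts divided by annotated transcript length and scaled to the same total in each library), the WT/PEG medians were 3098 for Atp4b and 3001 for Atp4a, followed by 322 for Clic6, a member of the chloride intracellular channel family. Atp4b and Atp4a could not be ranked, since Atp4b was the higher of the pair in 5 of 11 libraries. Then came Slc4a2 (161), Kcne2 (133), Kcnj16 (122), Kcnj15 (105), Slc9a4 (89.1), Kcnq1 (66.5) and Slc26a7 (12.2). Within this sequence Kcne2 was above Kcnj16 in 7 of 11 libraries and Kcnj16 above Kcnj15 in 8 of 11, so these neighbours overlapped, while Kcnq1 was above Slc26a7 in all 11. In KO/PEG the order differed. Atp4a remained first with 2013 TPM, Slc4a2 (159) and Clic6 (136) were next without a clear order between them (Slc4a2 was higher in 7 of 13 libraries), and Kcnj16 (12.3) and Atp4b (5.06) had moved down to just above Slc26a7 (1.04). Slc9a4 had moved up from rank 8 to rank 4, with a median of 108.7 TPM against 89.1 in WT/PEG. In TPM the median of Slc9a4 was thus higher in KO/PEG and that of Slc4a2 nearly level, while both were lower in CPM, as given below.

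The first comparison, KO/PEG with WT/PEG, addressed the loss of the beta subunit in vehicle mice. Of the 10 genes, 9 were lower and none higher by edgeR's quasi-likelihood test, with a median log2 fold change of -1.31, against -0.0029 over all genes tested. The background was wide, since 74.7% of all genes tested passed the threshold in this comparison, with 37.2% of all genes tested lower and 37.5% higher. The spread among the 10 was also wide, from a 575-fold reduction of Atp4b to a difference that did not pass in Kcnq1.

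**Figure D1:**
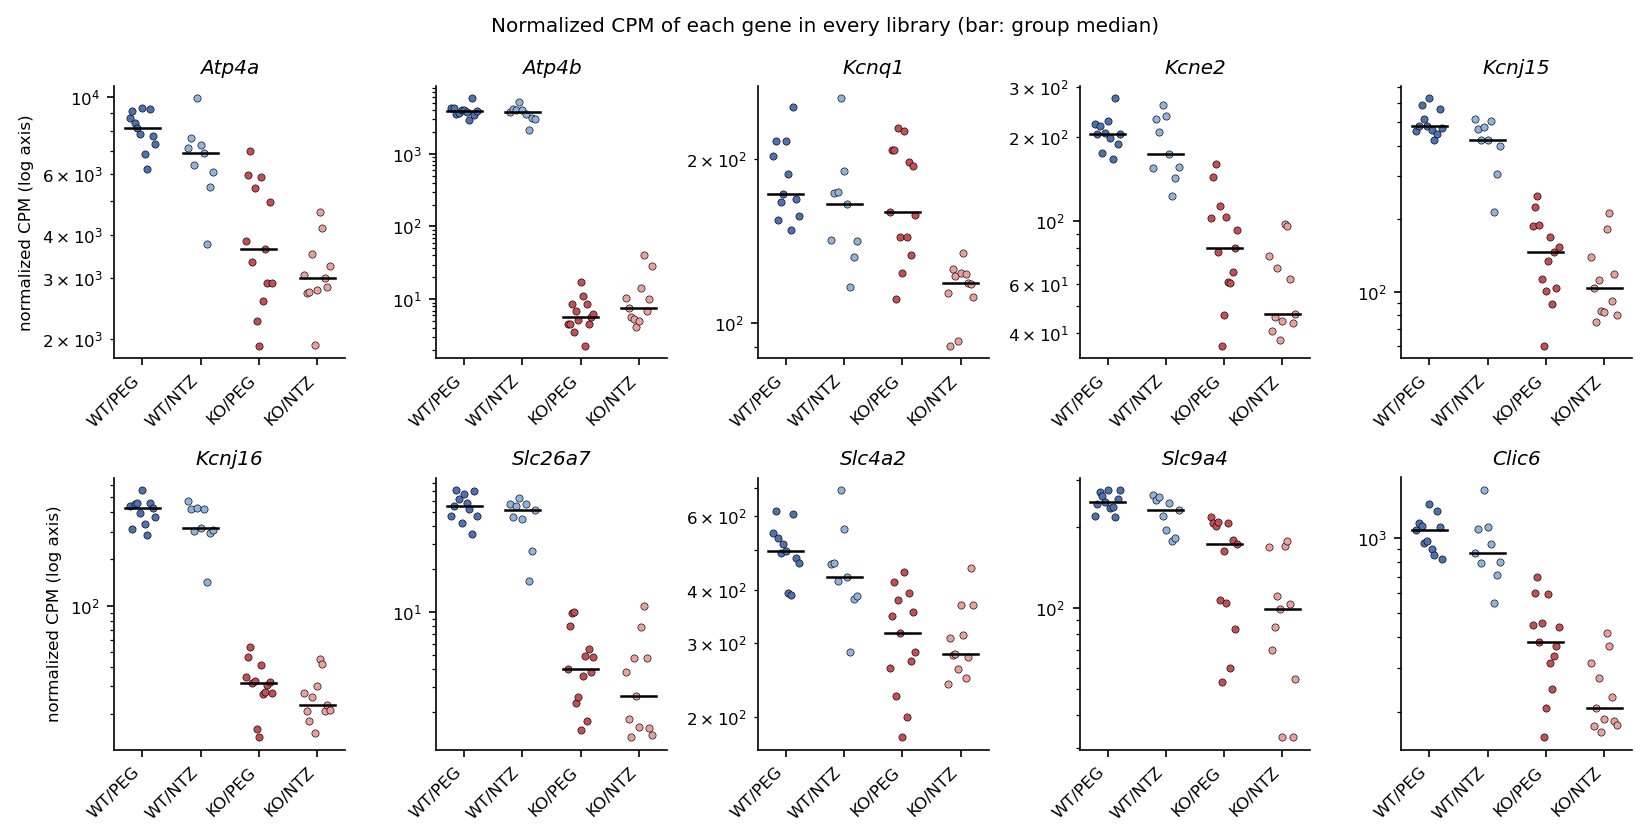
Level of each of the 10 genes in every library, as CPM on a log axis, by group, with each point a library and the bar at the group median. Atp4b, Kcnj16 and Slc26a7 are lower in every KO library than in any WT library, by the widest gap for Atp4b, and Kcnq1 overlaps between KO/PEG and WT/PEG.

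Atp4b (chr8:13386205-13396825, minus strand, GRCm38) was the targeted gene and checks the labels. It was measured at 2891 to 5738 CPM in WT/PEG, with a median of 3858, and at 2139 to 5075 in WT/NTZ, with a median of 3698. In KO/PEG it was between 2.28 and 17.0 CPM (median 5.72) and in KO/NTZ between 4.21 and 40.6 (median 7.63). Every KO library was thus far below every WT library. Estimated counts in KO libraries were not 0, with 26 the lowest and 518 the highest, and all were assigned to the only Atp4b transcript in the table, whose counts per exon are not analysed here. The log2 fold change of KO/PEG against WT/PEG was -9.17 ± 0.38 (SE; adjusted p = 5.667e-23).

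Atp4a (chr7:30712209-30725534), the catalytic subunit, was lower but far from lost. Its CPM ranged from 6201 through a median of 8137 to 9322 in the WT/PEG group. In WT/NTZ it ranged from 3751 through 6897 to 9937. The KO/PEG libraries held 1906 to 6978 with a median of 3636, and the KO/NTZ libraries 1920 to 4653 with a median of 2998. Of the 13 KO/PEG libraries, 12 were below the lowest WT/PEG library, and 1 was within the WT/PEG range. The reduction was 2.00-fold (log2 fold change -1.0 ± 0.17, adjusted p = 1.863e-06).

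The potassium channel subunits went different ways. Kcnq1 (chr7:143106362-143427042), the pore of the apical potassium channel, was at 148, 172.2 and 250 CPM (lowest, median and highest) in WT/PEG and at 110.6, 160 and 228 in KO/PEG. The groups overlapped, with 5 of 13 KO/PEG libraries below the lowest WT/PEG library, and the log2 fold change of -0.11 ± 0.12 did not pass the test (adjusted p = 0.393; 95% interval -0.34 to 0.12). Its partner Kcne2 (chr16:92292389-92298129), which keeps the Kcnq1 pore open at rest and in acid, was lower in all KO/PEG libraries than in any WT/PEG library. It was at 166, 205 and 273 CPM in WT/PEG and at 35.98, 80.6 and 160 in KO/PEG, a log2 fold change of -1.24 ± 0.18 (adjusted p = 1.565e-07).

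Larger reductions were measured in the inward rectifiers, which pass potassium near the resting potential. Kcnj15 (Kir4.2; chr16:95257558-95300260) was at 420, 480 and 625.4 CPM in WT/PEG and at 59.8, 146 and 247 in KO/PEG (log2 fold change -1.77 ± 0.18, adjusted p = 3.404e-11). Kcnj16 (Kir5.1; chr11:110968033-111027968), which forms channels with other Kir subunits, was at 286, 425 and 560 CPM in WT/PEG and at 14.0, 31.6 and 54.2 in KO/PEG (-3.68 ± 0.20, adjusted p = 2.054e-19). Neither gene had a KO/PEG library that reached the lowest WT/PEG library. In KO/PEG 46, the library whose length slope lay in the WT range, Kcnj16 was at 27.1 CPM and Kcnj15 at 153.

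Of the exchangers at the basolateral side, Slc26a7 (chr4:14502430-14621805, minus strand) was the most reduced. It was at 35.2, 55.4 and 71.7 CPM in WT/PEG and at 1.48, 4.01 and 9.93 in KO/PEG, without overlap (log2 fold change -3.50 ± 0.30, adjusted p = 4.826e-13). Slc4a2 (chr5:24423837-24440950) was at 389, 498 and 618 CPM in WT/PEG and at 179, 317 and 441 in KO/PEG, with 10 of 13 KO/PEG libraries below the WT/PEG range (-0.68 ± 0.13, adjusted p = 1.609e-05). Slc9a4 (chr1:40580081-40630725) was at 219, 248 and 276 CPM in WT/PEG and at 52.8, 174 and 219 in KO/PEG, with 12 of 13 below (-0.72 ± 0.22, adjusted p = 0.00399). Clic6 (chr16:92485736-92541243) was at 826, 1081 and 1372 CPM in WT/PEG and at 158, 382 and 698 in KO/PEG, without overlap (-1.39 ± 0.19, adjusted p = 2.334e-08).

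**Figure D2:**
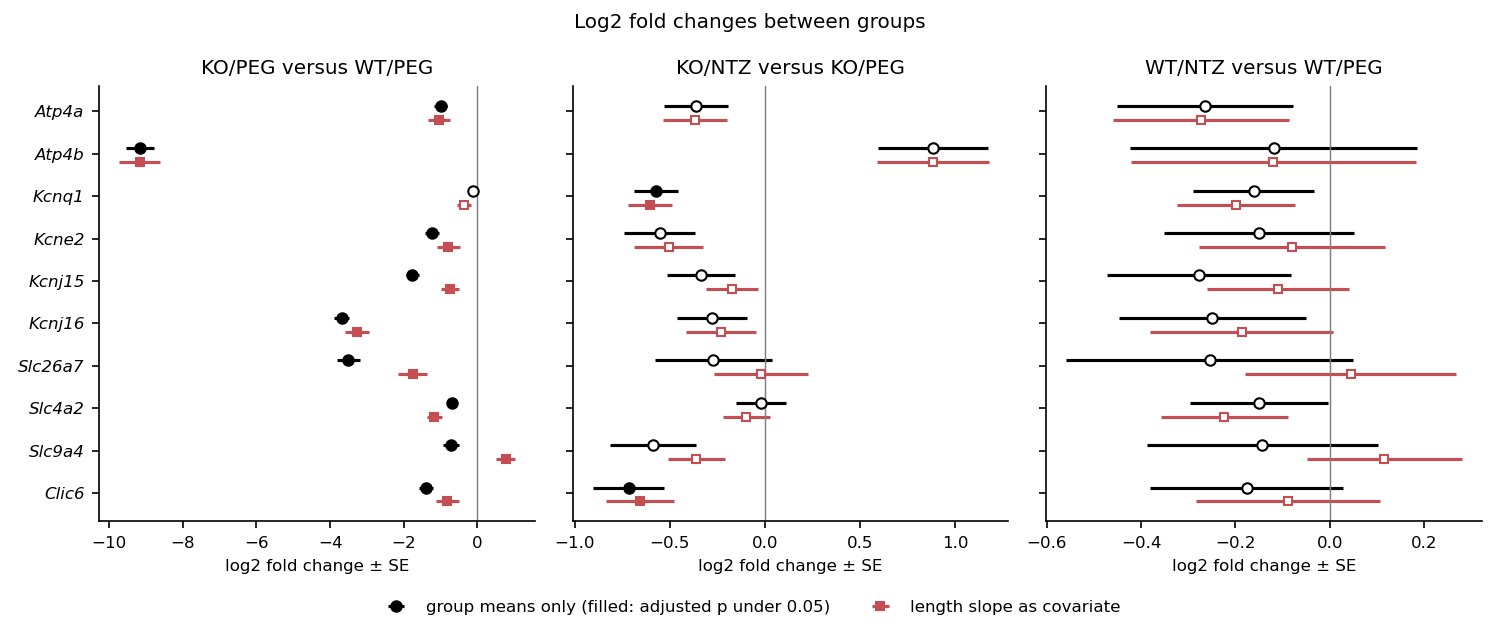
Log2 fold change with its SE for each of the 10 genes in 3 comparisons of groups, on linear axes, from the fit with group means only (circles) and from the fit with the length slope added (squares), filled where the adjusted p passed. Slc9a4 changes sign between the fits in KO/PEG against WT/PEG, from -0.72 to 0.77.

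Some of these differences were tied to the length slope. Within groups, level varied with the slope for 66.4% of all genes at the threshold, and for 5 of the 10 genes here. Libraries with a higher slope had higher levels of Slc26a7 (log2 change of 3.99 ± 0.72 per unit of slope, adjusted p = 5.153e-06), Slc9a4 (3.43 ± 0.46, adjusted p = 1.488e-08), Kcnj15 (2.28 ± 0.41, adjusted p = 5.05e-06) and Clic6 (1.24 ± 0.52, adjusted p = 0.0334), and lower levels of Slc4a2 (-1.02 ± 0.34, adjusted p = 0.00799). Atp4a, Atp4b, Kcnq1, Kcne2 and Kcnj16 did not pass. A fit with the slope as a covariate, chosen after the data were examined, gave log2 fold changes in KO/PEG against WT/PEG of -1.05 for Atp4a, -9.18 for Atp4b, -0.79 for Kcne2, -0.75 for Kcnj15, -3.26 for Kcnj16, -1.76 for Slc26a7, -1.17 for Slc4a2 and -0.82 for Clic6. Kcnq1 was at -0.36. Slc9a4 turned to 0.77 (adjusted p = 0.0171). Slc9a4 also lost its call with total count scaling (-0.38, adjusted p = 0.175) and with the mitochondrial share as covariate (-0.29, adjusted p = 0.283). When only the 12 KO libraries with the higher slopes were kept with all WT libraries (8 KO/PEG and 4 KO/NTZ, also chosen after seeing the data), Slc9a4 was at -0.32 (adjusted p = 0.00128), Kcnj15 at -1.48, Kcnj16 at -3.60 and Slc26a7 at -3.16. The direction for Slc9a4 therefore depends on how the slope is treated, and that for Kcnj16, Slc26a7, Atp4a and Atp4b does not in these fits. In KO/PEG 46, the library whose slope lay in the WT range, Slc9a4 was at 174 CPM, below the lowest WT/PEG library (219).

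**Figure D3:**
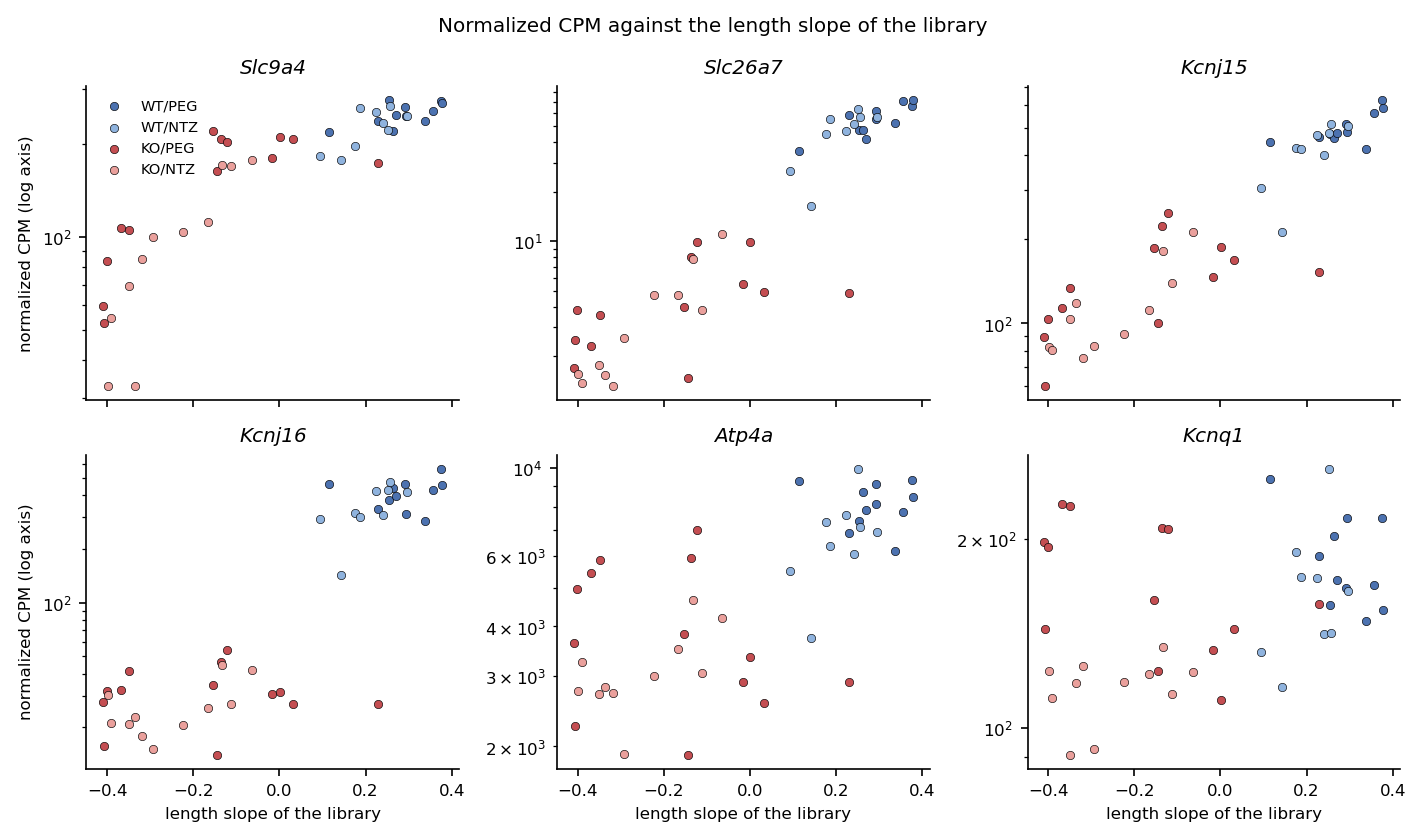
Length slope of each library (horizontal axis, log2 level per log2 length) against the CPM of 6 of the genes on a log axis, with each point a library coloured by group. The WT libraries lie between 0.0938 and 0.379 and the KO libraries mostly below 0, so the groups share little of the axis.

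Kcne2 can start at either of 2 first exons, and its promoters are shown because the counts assigned to these starts differed between libraries. Each window holds 250 bases before the start and the first 50 transcribed bases, the latter in capitals, from RefSeq on GRCm38.p6, plus strand: chr16:92292139-92292438 for the upstream start, chr16:92295366-92295665 for the downstream start, and chr7:30711959-30712258 for Atp4a.
Kcne2 upstream start: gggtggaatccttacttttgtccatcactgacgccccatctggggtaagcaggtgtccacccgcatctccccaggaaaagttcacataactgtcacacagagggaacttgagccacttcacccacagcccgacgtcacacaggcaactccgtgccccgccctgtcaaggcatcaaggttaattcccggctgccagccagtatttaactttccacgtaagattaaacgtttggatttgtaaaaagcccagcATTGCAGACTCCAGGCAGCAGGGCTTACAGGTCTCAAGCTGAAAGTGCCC
Kcne2 downstream start: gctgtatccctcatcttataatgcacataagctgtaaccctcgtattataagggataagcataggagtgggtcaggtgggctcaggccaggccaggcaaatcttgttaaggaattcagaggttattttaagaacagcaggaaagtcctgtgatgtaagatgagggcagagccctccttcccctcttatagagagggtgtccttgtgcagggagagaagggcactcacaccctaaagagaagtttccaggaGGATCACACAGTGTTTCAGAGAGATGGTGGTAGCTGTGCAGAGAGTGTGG
Atp4a start: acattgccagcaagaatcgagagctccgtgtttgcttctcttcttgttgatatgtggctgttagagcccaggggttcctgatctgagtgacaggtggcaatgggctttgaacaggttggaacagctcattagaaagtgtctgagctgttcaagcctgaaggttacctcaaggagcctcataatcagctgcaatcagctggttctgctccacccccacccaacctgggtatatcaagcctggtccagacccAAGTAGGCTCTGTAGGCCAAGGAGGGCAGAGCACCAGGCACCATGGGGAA

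The first exons lie at chr16:92292389-92292523 (135 bases, transcript ENSMUST00000047383) and chr16:92295616-92295692 (77 bases, ENSMUST00000113971). Both transcripts continue into one shared exon, chr16:92296575-92298129, of 1555 bases, which holds the whole coding sequence (chr16:92296587-92296955). The transcripts therefore differ only before the coding sequence, by 134 unique 31-base words for the upstream start and 76 for the downstream start, and kallisto can divide reads between them on no other sequence. In the 20 WT libraries the downstream start took 0% to 4.11% of the Kcne2 counts. In the 12 KO libraries with the lower slopes it took 35.7% to 83.0% (median 64.1%), and in the 12 with the higher slopes 0% to 29.7%. In CPM, the downstream start was at 0 to 5.43 in WT, at 18.7 to 62.8 in KO libraries with the lower slopes and at 0 to 28.5 in the others, while the upstream start was at 121.2 to 274, 5.99 to 57.5 and 35.3 to 156.5, in that order of groups. The KO libraries with higher slopes were thus closer to WT in the share of counts assigned to each start. Since only sequence in the first exons separates the transcripts, and the share moved with the slope, use of the starts was not measured directly. Whether the starts themselves were used differently was not tested.

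**Figure D4:**
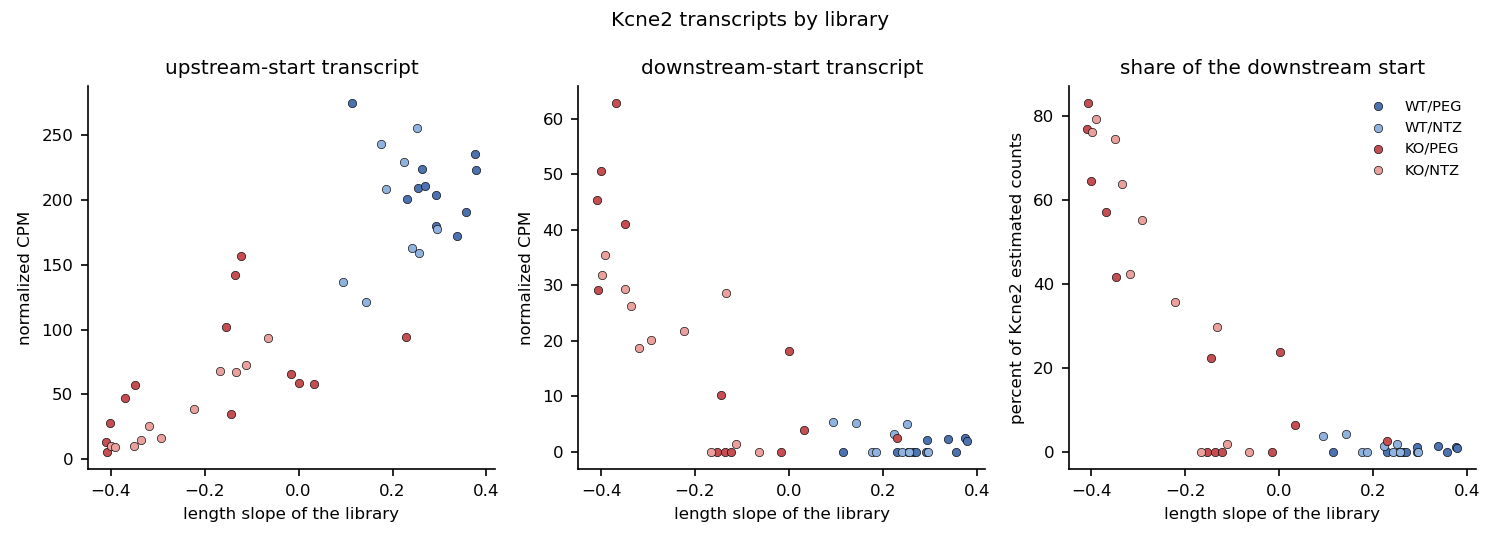
Kcne2 transcripts from the upstream and downstream starts in every library, in CPM, and the share of the downstream start in percent of Kcne2 counts, plotted against length slope, with each point a library coloured by group. Values from the downstream start reach 62.8 CPM in KO libraries with low slopes and do not pass 5.43 in WT libraries.

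Of 31 transcripts of the 10 genes with enough counts, 3 were higher, 23 lower and 5 did not pass in KO/PEG against WT/PEG, where 53.5% of all transcripts tested passed. Those higher were the Kcne2 transcript from the downstream start (log2 fold change 4.57 ± 1.23, adjusted p = 0.00187), ENSMUST00000140722 of Slc4a2 (2.10 ± 0.35, adjusted p = 3.599e-06) and ENSMUST00000192454 of Slc9a4 (1.04 ± 0.19, adjusted p = 9.133e-06). The last 2 are annotated as retained introns, and the one of Slc4a2 overlaps the end of Fastk on the other strand, so that its counts are uncertain. The Kcne2 transcript from the upstream start was lower (-1.67 ± 0.37, adjusted p = 0.000185). With the slope as covariate, the pair from Kcne2 was at 0.57 (adjusted p = 0.872) and 0.22 (adjusted p = 0.836), so neither passed, and the main coding transcript of Slc9a4, ENSMUST00000027233, moved from -1.33 to 1.11 (adjusted p = 0.031). Among 4 transcripts of Slc9a4 tested, the coding one, of 3962 bases, fell while the retained intron of 1449 bases rose. In contrast, all 6 transcripts of Kcnj15 and all 3 of Kcnj16 fell, from -1.61 and -3.62 downwards. No 31-base word was unique to ENSMUST00000037154, ENSMUST00000113854, ENSMUST00000113858 or ENSMUST00000113859 of Kcnj15, or to ENSMUST00000180023 of Kcnj16. Their values rest on how shared reads were divided and are not separate observations. The last was at 0 in 7 of 11 WT/PEG libraries. With the slope as covariate 1 of the 6 (ENSMUST00000113856, -1.63) and 1 of the 3 (ENSMUST00000106636, -3.43) still passed, and ENSMUST00000113859, the Kcnj15 transcript with the most counts, was at 0.55 (adjusted p = 0.721). Of all 31, 8 passed in that fit, against 26 before. A second coding transcript of Atp4a, ENSMUST00000170371, was at 2.32 (adjusted p = 0.0628; -2.93 with the slope as covariate, adjusted p = 0.159) and reached 644 CPM in KO libraries with the lower slopes.

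The ratio of each gene to Atp4a within a library was taken as the difference of log2(CPM + 0.5), which depends little on how libraries are scaled, except at low levels such as those of Slc26a7. It was tested for 8 genes, Atp4b being left out, by permutation of the libraries with p-values adjusted over the 8. In KO/PEG against WT/PEG 7 of 8 passed. The share of all genes whose ratio to Atp4a would pass was not computed, and 74.7% of all genes tested differed in level in this comparison. Relative to Atp4a, Kcnj16 and Slc26a7 were lower by log2 differences of -2.62 and -2.45 (adjusted permutation p = 2.667e-05 each, from the smallest p the permutations can give, 1e-05), Kcnj15 by -0.76 (adjusted permutation p = 0.00144), Clic6 by -0.39 (0.00186) and Kcne2 by -0.24 (0.0296). Kcnq1 was higher relative to Atp4a by 0.97 (adjusted permutation p = 2.667e-05) and Slc4a2 by 0.38 (0.00233). Slc9a4 was at 0.24 (adjusted permutation p = 0.397). The change was therefore unequal among these genes. In the fit with the slope as covariate, the gene fold changes of Kcnj15 (-0.75), Clic6 (-0.82) and Kcne2 (-0.79) were smaller than that of Atp4a (-1.05), and that of Slc4a2 (-1.17) was larger. For these 4 genes the order of the point estimates relative to Atp4a thus turned, but no SE was computed for these gaps. Slope-adjusted ratios were not tested.

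**Figure D5:**
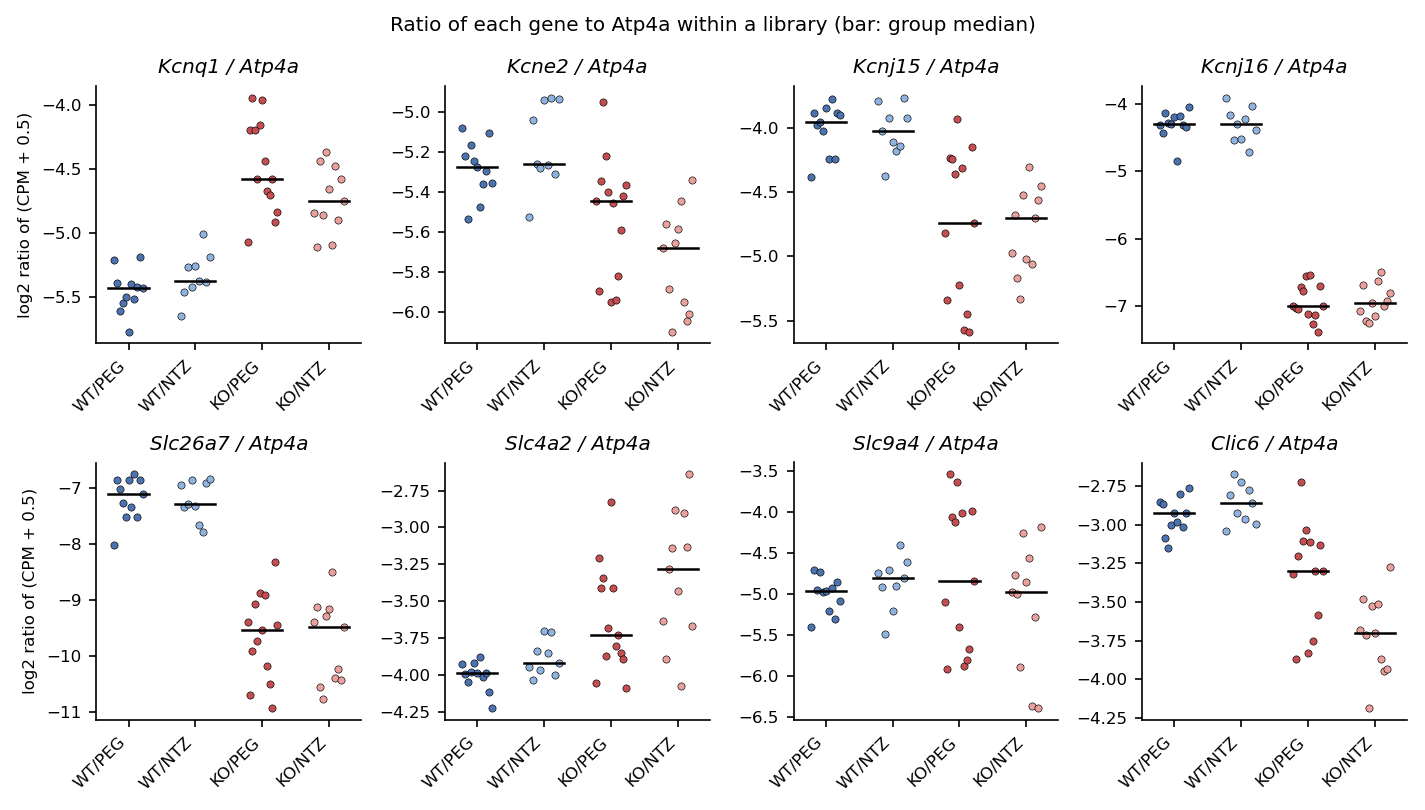
Log2 ratio of each gene to Atp4a in every library (vertical axis), by group, with each point a library and the bar at the group median. Kcnj16 and Slc26a7 lie lower in KO/PEG than in WT/PEG by 2.62 and 2.45, and Kcnq1 lies higher by 0.97.

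NTZ in KO mice was the second comparison. Of the 10 genes, 2 fell and none rose in KO/NTZ against KO/PEG, where 5.56% of all genes tested passed. Kcnq1 was at 90.6, 118.2 and 134 CPM (lowest, median and highest) in KO/NTZ, and 10 of 13 KO/PEG libraries were above its highest value there (log2 fold change -0.57 ± 0.12, adjusted p = 0.0019). Clic6 was at 166, 208 and 416 CPM, with 6 of 13 KO/PEG libraries above (-0.72 ± 0.19, adjusted p = 0.0163). The other 8 genes did not pass. Their log2 fold changes were -0.36 for Atp4a, -0.55 for Kcne2, -0.34 for Kcnj15, -0.28 for Kcnj16, -0.27 for Slc26a7, -0.02 for Slc4a2, -0.59 for Slc9a4 and 0.88 for Atp4b, with adjusted p between 0.0605 and 0.934. Of the 10 genes, 6 had an unadjusted p below the threshold, as did 3713 of all 14901 genes tested. At transcript level, 2 of the 31 fell with NTZ in KO, those of Kcnq1 (-0.60, adjusted p = 0.00195) and Clic6 (-0.74, adjusted p = 0.0255), where 2.56% of all transcripts passed. Relative to Atp4a none of the 8 ratios passed, the nearest being Clic6 (-0.38, adjusted permutation p = 0.0531).

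Kcnq1 passed in 13 of 15 alternative fits and Clic6 in 12. The median length slope was -0.293 in KO/NTZ and -0.145 in KO/PEG. With the slope as covariate, the tested transcripts of Kcnq1 (-0.62, adjusted p = 0.0014) and Clic6 (-0.67, adjusted p = 0.0402) still passed by edgeR. The calls did depend on the method and on which KO libraries were compared. DESeq2 called 4 genes, adding Kcne2 (-0.56) and Atp4b (0.88), each with an adjusted p of 0.0342. With KO libraries of animal numbers below 100 alone (6 KO/PEG and 10 KO/NTZ) none of the 10 genes passed, with Kcnq1 at -0.43 ± 0.12 (adjusted p = 0.105) and Clic6 at -0.42 ± 0.23 (adjusted p = 0.309). With only the KO libraries of higher slope none passed either, and Kcnq1 was at -0.36 (adjusted p = 0.426) and Clic6 at -0.34 (adjusted p = 0.628).

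In WT mice no gene of the 10 passed with NTZ by edgeR or DESeq2, where 1.03% of all genes tested passed by edgeR. None had an unadjusted p below the threshold by edgeR, against 1166 of all 14901 genes tested. All 10 estimates were below 0, between -0.28 and -0.12, with 0.892 the lowest adjusted p. The 95% intervals reached down to -0.85 for Slc26a7 and -0.71 for Atp4b. A single WT/NTZ library was the lowest of its group for all 10 genes. Its summed immune marker level was 375 CPM (of library totals, without TMM normalization), against 14.9 to 43.3 in the other WT/NTZ libraries. It also had the lowest chief cell sum of the group (70592) and the highest sum of general epithelial markers (5304). Its sum of antrum markers was the highest as well (41.03), with another WT/NTZ library at 40.99. Without the library lowest in all 10 genes the estimates were between -0.19 and -0.05. The summed level of 3 squamous markers of the forestomach also differed, from 0.318 to 255 CPM in WT/PEG and from 0.374 to 1679.5 in WT/NTZ, and its part was not tested. Among WT mice with numbers of at least 100 (11 WT/PEG and 4 WT/NTZ), 3 genes passed as lower: Atp4a (-0.49, adjusted p = 0.0487), Kcnj15 (-0.56, adjusted p = 0.0305) and Slc9a4 (-0.31, adjusted p = 0.0299). These 4 WT/NTZ libraries included the library lowest in all 10 genes. They also included the one with the antrum sum of 40.99, which was next lowest in Atp4a (5510 CPM). The part of these libraries in the calls was not tested.

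Whether NTZ acted differently by genotype was tested as an interaction, and none of the 10 genes passed by edgeR or by DESeq2, where 0.96% of all genes tested passed by edgeR. The lowest adjusted p was 0.305, and 2 genes, Kcnq1 (-0.41 ± 0.17) and Atp4b (1.0 ± 0.42), had an unadjusted p below the threshold. Over all 14901 genes tested, 1732 did. That Kcnq1 passed in KO and not in WT is therefore not shown to be a difference between genotypes.

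Under NTZ, KO and WT mice differed at all 10 genes. Each was lower in KO/NTZ than in WT/NTZ, with a median of -1.74, where 72.4% of all genes tested passed and 36.8% were lower. Kcnj16 was at 142.8, 317 and 472 CPM in WT/NTZ and at 15.04, 22.8 and 44.9 in KO/NTZ (-3.71 ± 0.21, adjusted p = 7.36e-18). Slc26a7 was at 16.4, 51.8 and 63.2 CPM in WT/NTZ and at 1.32, 2.57 and 11.1 in KO/NTZ (-3.52 ± 0.34, adjusted p = 1.286e-11). Kcnq1 passed here as lower (-0.52 ± 0.13, adjusted p = 0.000394), at 116, 165 and 259 CPM in WT/NTZ. Slc9a4, at 178, 233 and 266 CPM in WT/NTZ and at 32.9, 99.7 and 178 in KO/NTZ (-1.16 ± 0.25), became 0.29 with the slope as covariate.

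Between mice of one genotype, most of the 10 genes varied with Atp4a. After group means were removed, 7 of 8 correlations over the 24 KO libraries and 7 of 8 over the 20 WT libraries passed a permutation test adjusted over the 16. The share of all genes whose correlation with Atp4a would pass was not computed. Pearson's r was 0.87 for Kcnj16, 0.86 for Kcne2, 0.84 for Clic6 and 0.80 for Kcnq1 in KO, and Spearman's rho 0.82, 0.86, 0.79 and 0.81 (adjusted permutation p = 2.286e-05 for each r and 2.667e-05 for each rho). Without the 2 libraries farthest from the median of Atp4a the r values were 0.83, 0.82, 0.79 and 0.77. Kcnj15 (r = 0.54, rho = 0.45), Slc4a2 (0.58 and 0.49) and Slc26a7 (0.47 and 0.42) were less close in KO, with adjusted permutation p of 0.00827, 0.00384 and 0.0227 for r and 0.0385, 0.022 and 0.0507 for rho, and r fell to 0.41, 0.52 and 0.35 without the same libraries. In WT, r was 0.93 for Clic6, 0.93 for Slc4a2, 0.83 for Kcnj16, 0.82 for Kcnq1, 0.81 for Kcne2 and 0.79 for Kcnj15, with rho of 0.92, 0.89, 0.76, 0.81, 0.74 and 0.61. Their adjusted permutation p was at most 0.000256 for r and 0.00786 for rho, and r was at least 0.53 without the farthest pair of libraries. The correlation of Slc26a7 in WT had r = 0.64 (adjusted permutation p = 0.00569) and rho = 0.39 (adjusted permutation p = 0.106). Its r fell to 0.22 without 2 WT/NTZ libraries, and so rests on them. They had the highest antrum marker sums of the WT/NTZ group (41.03 and 40.99 CPM of library totals). Slc9a4 did not pass in either genotype (r = 0.19 and rho = 0.22 in KO, r = 0.40 and rho = 0.26 in WT, with adjusted permutation p of at least 0.0839). All of these libraries share the spread in parietal cell content and in length slope, and the part of either was not tested.

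Across 10865 genes with a mean of at least 5 CPM, the genes most like Atp4a in their deviations from group means over the 44 libraries were Dbn1 (r = 0.90), Ak1 (0.88), Rph3al (0.87), Sfxn3 (0.87) and Auh (0.87). Clic6, Kcne2 and Kcnj16 ranked 10, 11 and 12, and Kcnq1 ranked 40. Slc4a2 ranked 125, Kcnj15 245, Slc26a7 426, Atp4b 930 (r = 0.37) and Slc9a4 2283. Many genes outside the 10 thus followed Atp4a more closely than several of the 10 did. Dbn1, Ak1 and Rph3al were lower in KO/PEG than in WT/PEG (-0.64, -1.01 and -1.28), and Sfxn3 (-0.17) and Auh (-0.25) did not pass.

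Other genes of the acid secretion pathway moved in both directions. Of 36 listed, 34 were tested, of which 18 were lower, 10 higher and 6 did not pass in KO/PEG against WT/PEG, beside 74.7% of all genes tested that passed, with a median of -0.31. Those with the smallest p included Hrh2, the histamine receptor of parietal cells (-3.11), the chloride transporter Slc26a9 (-2.02), the chloride channel Clcn2 (1.69) and the inward rectifier Kcnj2 (-1.71), each of which kept its direction and its call in all 14 fits made. With the slope as covariate Slc26a9 was at -1.37 and Kcnj2 at -1.17. With NTZ in KO, where 5.56% of all genes passed, 2 of the 34 rose, Stx3 (0.45) and Vamp2 (0.57), both of the vesicle fusion machinery. A further 5 fell: Cckbr, the gastrin receptor (-0.98), the water channel Aqp4 (-2.26), Adcy9 (-0.69), Slc12a2 (-0.59) and Chrm3 (-0.44). These calls differed in stability, with Chrm3 called in 6 and Slc12a2 in 7 of 13 fits, Adcy9 in 9, Aqp4 and Vamp2 in 11, and Cckbr and Stx3 in 12. Of 6 parietal cell markers outside the 10 genes, 5 were lower in KO/PEG (Hrh2, Esrrg at -2.87, Esrrb at -1.95, Aqp4 at -2.03 and Chrm3 at -0.49), and Car2, which other gastric cells also express, was higher (0.30). With the slope as covariate Aqp4 (-0.11) and Chrm3 (0.19) did not pass, Esrrg was at -0.93, Esrrb at -1.85 and Hrh2 at -2.80.

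Of 38 relatives of the 10 genes, 32 were tested, with 21 lower, 7 higher and 4 not passing in KO/PEG against WT/PEG (median -0.61), again beside 74.7% of all genes tested that passed. Beside Slc26a9 and Kcnj2 from above, they included Kcne1 (-3.14), an accessory subunit that can also join Kcnq1, and Clic1 (1.19, and 0.60 with the slope as covariate). Kcne3, another partner of Kcnq1, was outside the rule for named genes and was picked after its value was seen. It was at 1.06 CPM in WT/PEG and 9.36 in KO/PEG (medians; adjusted p = 2.638e-10). With NTZ in KO, the sodium pump subunit Atp1b2 was among the relatives that rose (0.52). Kcne1 lies 67.1 kb from Kcne2 on chromosome 16, where Clic6 starts 193 kb away. Of 20 other genes within 200 kb of the starts of Kcne2, Clic6 and Kcnj15, all on this chromosome, 3 were tested, and these moved both ways in KO/PEG, with Kcne1 and Rcan1 (-0.26) lower and Smim11 (0.94) higher.

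Promoter windows were held for 5 of the 10 genes, Atp4a, Slc4a2, Kcnj15, Kcnj16 and Kcne2, at 10 starts in all. Each motif was searched on both strands. AAGGTCA, the site of estrogen-related receptors, was in 4.72% of 32851 mouse promoter windows of the same length and in 1 of the 10, that of Kcnj16, 190 bases before the start on the opposite strand. For AGATAA, as bound by GATA factors, the share was 11.2% of all windows, with 2 of the 10, and for TATAAA it was 13.6%, with 2 of the 10. Of these, 1 window of Kcnj16 and the Kcnj15 window held both. None of the 3 was in the windows printed above for Kcne2 and Atp4a.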

How the data were processed

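Messenger RNA of gastric corpus mucosa was sequenced from 44 libraries, grouped by their labels. According to the submitters' processing notes, the authors estimated counts per transcript with kallisto 0.42.4 on GRCm38, and deposited these estimated counts for 94080 transcripts without normalization. The setting for strand is not given in the sources used here. Of the transcripts, 92372 were matched to GENCODE vM21 gene names, summed per gene and rounded, and 1708 were not matched. All 44 libraries were fitted in one model with a mean per group in edgeR 4.0.16 (R 4.3.3), after filterByExpr (minimum count 10, minimum total count 15) and TMM normalization. Quasi-likelihood p-values were adjusted over all genes or transcripts tested (Benjamini-Hochberg), with a threshold of 0.05. The Sleuth test of the study was not repeated. Ratios were log2(CPM + 0.5) differences tested by permutation (100000, or exact for WT/NTZ), two-sided, as were the correlations. TPM were computed from annotated lengths.

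The members and lists were chosen with earlier results of these data known. Named genes were all 10 members and their tested transcripts, at most 5 of each list by smallest p and those that changed with NTZ in KO, and the 5 genes most like Atp4a; some genes that met this rule are not reported here. Libraries of 6065084 to 21945124 counts put 3 counts, the smallest signal considered, at 0.137 to 0.495 CPM, which covers counting error only. The scripts were tested on simulated counts. Alternatives were DESeq2 1.42.0, other normalizations and filters, libraries left out or summed, and, chosen after the data were examined, the length slope or mitochondrial share as a covariate, the KO libraries of higher slope, WT/NTZ without the library lowest in all 10 genes, and protein-coding transcripts only. The pair of WT/PEG libraries that carry one animal number differed with a chi-square of 17.2 per degree of freedom, rank 11 of 55 pairs, and was counted as 2 samples. Number 110 is shared by libraries of KO/PEG and KO/NTZ. Figures were drawn with matplotlib 3.10.9.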

Additional observations from a re-analysis of the deposited data

How the results depend on the processing

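Of the values of single genes, transcripts, ratios and correlations recomputed under the alternatives, 767 kept their direction and their side of the threshold, 23 lost and 6 gained a call with the same sign, and 27 changed sign. Among counts, 90 stayed within 1.5 times and 12 did not; the cause was not tested. Genotype and length slope are nearly confounded, so the slope fit rests on few KO libraries in the WT range. No paired analysis was possible because only the number 110 is shared between groups.

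With NTZ in KO, the genes called (2) became 4 by DESeq2, 1 with only the groups compared, 0 in one range of animal numbers and 0 with the KO libraries of higher slope. In WT they went from 0 to 3 in one range of numbers. Transcripts called went from 26 to 8 with the slope as covariate in KO/PEG against WT/PEG, and with NTZ in KO from 2 to 1 without a filter and to 0 in KO libraries of higher slope. Ratios called with NTZ in KO went from 0 to 1 with Kcne2 as reference, to 1 without number 110 and with the WT/PEG pair of one animal number summed, and to 2 in one range of numbers, and in WT from 0 to 1 in that range.

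Signs changed as follows. In KO/PEG against WT/PEG, Kcnq1 was at 0.17 with total count scaling, which moved the median of all genes to 0.29, and at 0.054 in one range of numbers. Slc9a4 was at 0.77 with the slope covariate, and its ratio to Atp4a at -0.23 in one range of numbers. Among transcripts the slope covariate gave 1.11 for ENSMUST00000027233, 0.22 for ENSMUST00000047383, 0.12 for ENSMUST00000080067, 0.55 for ENSMUST00000113859, 0.16 for ENSMUST00000155636, -2.93 for ENSMUST00000170371 and 0.088 for ENSMUST00000192849. KO libraries of higher slope gave -0.62 for ENSMUST00000170371 and 0.070 for ENSMUST00000192849, the latter at 0.043 without a filter, and ENSMUST00000165410 was at -0.024 with RLE size factors. With NTZ in KO, Slc4a2 was at 0.0093 without number 110, at 0.22 in one range and at 0.012 with protein-coding transcripts only. In that range Atp4a was at 0.095, Kcnj16 at 0.0026 and Slc26a7 at 0.14, and with the KO libraries of higher slope Atp4a was at 0.0070, Kcnj16 at 0.059 and Slc26a7 at 0.14. With the slope covariate, Slc26a7 was at 0.044 and Slc9a4 at 0.12 in WT/NTZ against WT/PEG, and Slc9a4 at 0.29 in KO/NTZ against WT/NTZ.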
